A study of Mus musculus with 10 samples.

Results

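The leucine-rich repeat receptors Lgr4, Lgr5 and Lgr6 and the Wnt feedback genes Axin2, Nkd1, Nkd2, Rnf43 and Znrf3 were followed across sorted cells of the mouse mammary gland. These 8 genes were found by matching the Ensembl identifiers of the count tables to symbols in GENCODE M21 (GRCm38), and they are 8 of 49671 identifiers. The study holds 10 RNA sequencing libraries, 2 for each of 5 populations sorted by flow cytometry. Tomato hybrid cells (THC), Tomato luminal cells (TLC) and Tomato basal cells (TBC) were labelled as treated by ablation of luminal cells, and Tomato is a red fluorescent reporter. For luminal cells (LC) and basal cells (BC) the labels name no treatment, and they mark replicate 2 of each as WT, that is wild type. The labels give no strain, age, mouse line or driver of the reporter for any library, nor whether libraries came from separate or pooled animals. Every p therefore measures the spread between these libraries only. A comparison of a Tomato population with LC or BC contrasts ablation and Tomato marking at once, and these cannot be told apart. The labels do not say from which cells the Tomato populations descend, so rose and fell mean only higher and lower.

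Wnt ligands act through Frizzled receptors and Lrp5 or Lrp6 to stabilise beta-catenin, which switches on target genes together with Tcf and Lef factors. The ubiquitin ligases Rnf43 and Znrf3 take Frizzled receptors off the cell surface. R-spondins bind Lgr receptors and these ligases, which clears the ligases and keeps Frizzled in place. Axin2, Rnf43, Znrf3, Nkd1 and Lgr5 are themselves switched on by beta-catenin in many tissues, so that several of them serve as readouts of the pathway and damp it at the same time. In the mammary gland Wnt signalling is known for its part in basal and stem cells, and Lgr5 and Axin2 have been used there to mark cells in lineage tracing.

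Counts assigned to genes ranged from 2757773 in THC replicate 1 to 13685674 in LC replicate 2. THC replicate 1 stood apart, with 43.0% of its reads not aligned uniquely, against 14.6% to 22.4% in the other 9 libraries, and every THC comparison rests on it and 1 other library. Of all identifiers 19757 had enough counts to be tested, all 8 Lgr and feedback genes among them. Levels are CPM values, that is counts scaled to a common library size, where 3 counts equalled 1.16 CPM in THC replicate 1 and 0.202 CPM in THC replicate 2. The cell type labels were set against marker genes. Summed over 10 basal markers such as Krt5 and Acta2, the level was 6463 and 5115 CPM in THC, 1684 and 1035 CPM in TLC, 17710 and 12810 CPM in TBC, 293 and 127 CPM in LC, and 11030 and 15500 CPM in BC, for replicates 1 and 2. Summed over 10 luminal markers such as Krt8, it ranged from 2951 to 4013 CPM in THC, 4798 to 5810 in TLC, 738 to 1097 in TBC, 7557 to 10090 in LC and 1088 to 1477 in BC. Markers of other cell types were highest in THC for endothelium, at 679 and 671 CPM against 84.8 to 473 in the other 8 libraries, and for fibroblasts, at 995 and 2070 CPM against 184 to 707. Immune markers were highest in THC as well, at 343 and 133 CPM against 37.8 to 99.5. Pericyte markers ranged from 329 to 397 CPM in THC, 266 to 383 in TLC, 122.5 to 134.5 in TBC, 284 to 320.4 in LC and 95.3 to 209.9 in BC. In TLC and LC most of this sum was Notch3 alone, at 247 and 358 CPM in TLC and 256.5 and 272 in LC. Notch3 was at 141 and 155 CPM in THC, so the sums do not show like levels of the other pericyte markers. Each of the 10 endothelial, 10 fibroblast and 10 immune markers had counts in every library.

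**Figure D1:**
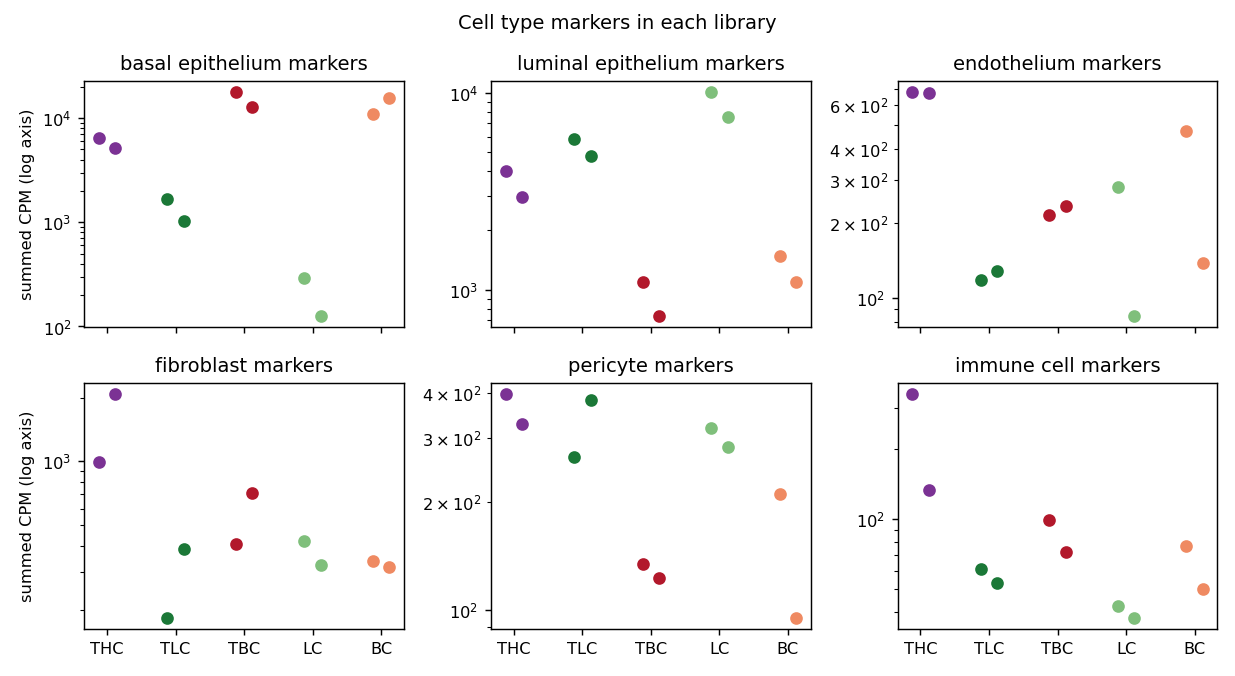
Summed CPM (log axes) of the marker lists of 6 cell types in each of the 10 libraries, 1 point per library. Basal markers in TLC lie between 1035 and 1684 CPM, above both LC libraries, and endothelial, fibroblast and immune markers are highest in both THC libraries.

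Across the 5 populations the 8 genes were highest in basal cells and differed in how much was found elsewhere. TBC or BC had the highest mean of every one of them. LC had the lowest mean of all but Lgr6, whose lowest mean was in TLC. THC means lay between those of TBC and TLC for each gene.

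Lgr4 is the most widely expressed of the receptors that bind R-spondins. It stood at 166 and 189 CPM in THC, 161 and 113 in TLC, 394.5 and 375 in TBC, 73.9 and 66.1 in LC, and 337 and 449 in BC. The libraries of TBC and BC overlapped, and below them THC, TLC and LC followed in that order without overlap. Lgr5, the receptor known as a stem cell marker of gut and hair follicle, stood at 102 and 102 CPM in THC, 118 and 62.2 in TLC, 382 and 259 in TBC, 7.70 and 3.52 in LC, and 423 and 592 in BC. Every BC library was above every TBC library, THC and TLC overlapped, and LC was far below all others. Lgr6, a receptor known from skin and its glands, stood at 189 and 310.1 CPM in THC, 79.8 and 90.9 in TLC, 539.5 and 775 in TBC, 121 and 102.5 in LC, and 242 and 687 in BC. TBC and BC overlapped, as did BC and THC, while TLC lay below LC without overlap. The BC libraries of Lgr6 differed 2.84-fold. In replicates 1 and 2 of BC the endothelial markers summed to 473 and 138 CPM, and the basal markers to 11030 and 15500 CPM. The part of these markers in this difference was not tested.

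Axin2, the scaffold of the complex that degrades beta-catenin, stood at 16.7 and 20.5 CPM in THC, 4.39 and 5.37 in TLC, 46.3 and 54.8 in TBC, 4.34 and 2.44 in LC, and 31.6 and 51.4 in BC. TBC and BC overlapped, THC lay below both, and TLC and LC were lowest, with TLC just above LC. Nkd1, which binds Dishevelled and damps Wnt signals, stood at 12.4 and 27.1 CPM in THC, 0.877 and 1.37 in TLC, 62.2 and 87.5 in TBC, 1.41 and 0.144 in LC, and 15.7 and 48.3 in BC. TLC and LC overlapped near the limit of counting, since TLC held 5 and 15 counts and LC 13 and 2. Nkd2, its paralog, stood at 53.9 and 44.6 CPM in THC, 48.6 and 47.9 in TLC, 62.0 and 81.4 in TBC, 4.01 and 0.503 in LC, and 24.3 and 27.4 in BC. It was the only one of the 8 genes whose 3 Tomato populations each lay above BC in both libraries. THC and TLC overlapped, and LC was lowest.

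Rnf43 stood at 25.96 and 51.9 CPM in THC, 22.6 and 40.5 in TLC, 66.8 and 92.3 in TBC, 27.6 and 30.8 in LC, and 61.3 and 87.3 in BC. Its levels formed an upper pair, TBC and BC, and a lower group of THC, TLC and LC, with overlap inside each. Znrf3 stood at 35.3 and 59.1 CPM in THC, 39.1 and 46.8 in TLC, 76.7 and 105 in TBC, 24.3 and 19.3 in LC, and 45.1 and 59.95 in BC. TBC was highest and LC lowest without overlap, and BC, THC and TLC overlapped.

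**Figure D2:**
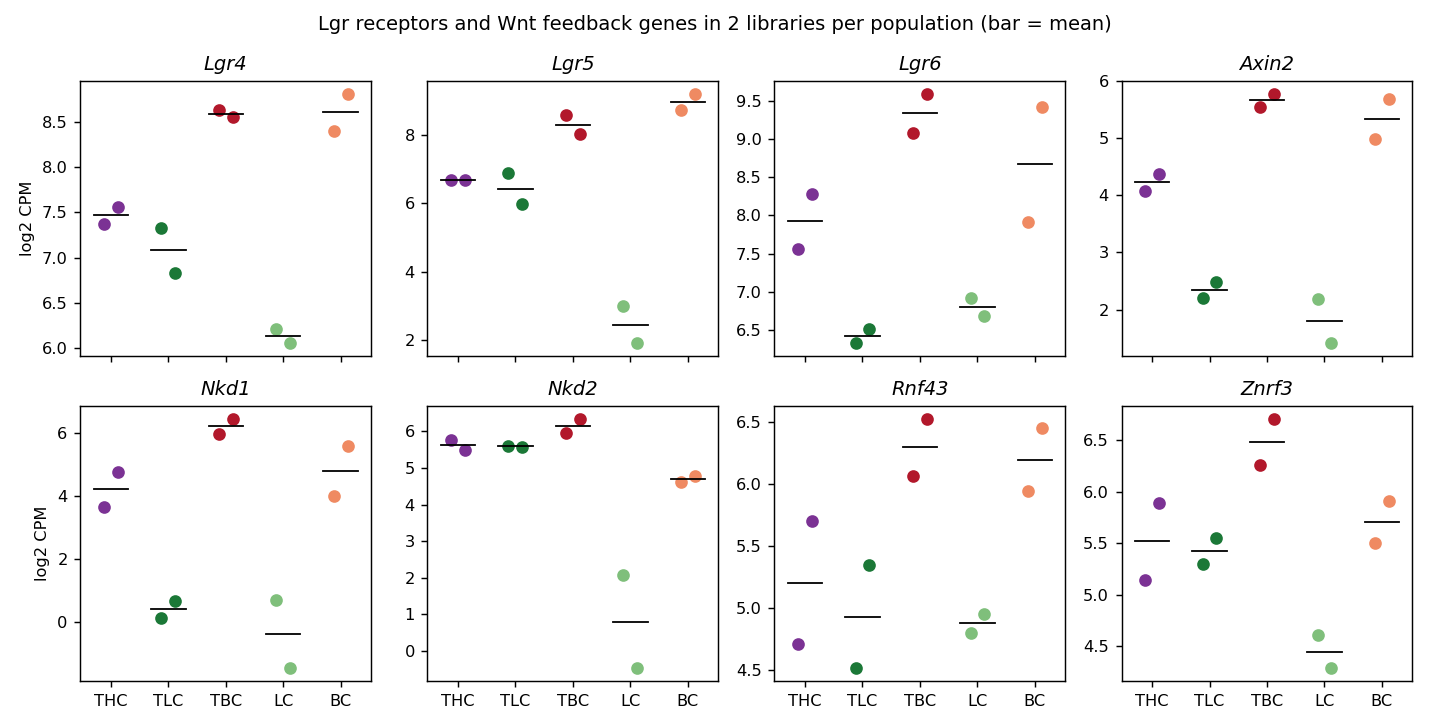
Log2 CPM of each of the 8 genes in THC, TLC, TBC, LC and BC, with 1 point per library and a bar at the mean of the 2 libraries. Lgr5 and Nkd2 stand far above LC in both TLC libraries, whereas Axin2 and Nkd1 stay near LC there.

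Levels of different genes were compared after division by the summed exon length of each. The 3 receptors were the highest of the 8 genes in TBC and in BC, but not in THC, TLC and LC. In TBC the per-length level was 95.96 ± 24.4 CPM per kilobase for Lgr6, 65.4 ± 2.30 for Lgr4 and 31.2 ± 8.48 for Lgr5 (SD, n = 2). The feedback genes ranged there from 9.18 ± 1.10 CPM per kilobase for Axin2 to 16.4 ± 3.93 for Nkd1 (SD, n = 2). In TLC the per-length level of Nkd2, at 9.99 ± 0.106 CPM per kilobase, was above those of Lgr5 at 8.80 ± 3.88 and of Axin2 at 0.886 ± 0.126 (SD, n = 2), although the libraries of Lgr5 spread across that of Nkd2. In LC Lgr6 at 16.3 ± 1.87 and Lgr4 at 11.9 ± 0.939 CPM per kilobase (SD, n = 2) were the highest, and Lgr5 was at 0.546 ± 0.288 (SD, n = 2).

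The genes lie on 6 chromosomes of GRCm38. Lgr4 (ENSMUSG00000050199) lies at chr2:109917647-110014257 on the plus strand, Lgr5 (ENSMUSG00000020140) at chr10:115450311-115587780 on the minus strand and Lgr6 (ENSMUSG00000042793) at chr1:134983301-135105276 on the minus strand. Axin2 (ENSMUSG00000000142) lies at chr11:108920349-108950783 on the plus strand, Rnf43 (ENSMUSG00000034177) at chr11:87662722-87735539 on the plus strand and Znrf3 (ENSMUSG00000041961) at chr11:5276324-5444847 on the minus strand. Nkd1 (ENSMUSG00000031661) lies at chr8:88521354-88594884 on the plus strand and Nkd2 (ENSMUSG00000021567) at chr13:73818534-73847631 on the minus strand. Exons of Axin2 overlap those of the antisense gene Gm11670, which had 389 counts over all 10 libraries, and since the strand setting of the counting is not given, reads of this stretch cannot be told apart by strand.

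Axin2 and Nkd2 are feedback genes that differed from each other in TLC, at 9.65% and 67.2% of their means in TBC, while Nkd1 was lower still at 1.5%. For both Axin2 and Nkd2 RefSeq (GRCm38.p6) gives the promoter. The 250 bases before each annotated start, 5′ to 3′ on the strand of the gene, are at chr11:108920099-108920348 on the plus strand for Axin2 and chr13:73847632-73847881 on the minus strand for Nkd2. No base is in capitals, because capitals were kept for matches to the Tcf and Lef motif, CTTTGAA or CTTTGAT on either strand, and neither stretch holds one.
Axin2: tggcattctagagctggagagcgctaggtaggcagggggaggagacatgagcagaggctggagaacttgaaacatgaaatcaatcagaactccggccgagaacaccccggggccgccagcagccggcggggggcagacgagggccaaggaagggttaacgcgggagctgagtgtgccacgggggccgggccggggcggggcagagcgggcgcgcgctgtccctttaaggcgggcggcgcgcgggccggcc
Nkd2: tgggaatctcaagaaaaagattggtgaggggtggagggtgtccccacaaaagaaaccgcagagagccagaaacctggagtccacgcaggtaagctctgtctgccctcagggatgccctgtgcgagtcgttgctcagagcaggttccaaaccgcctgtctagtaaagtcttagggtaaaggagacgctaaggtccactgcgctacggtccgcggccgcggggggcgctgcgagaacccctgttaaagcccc
The stretch of Axin2 has a GC content of 69.2% and that of Nkd2 58.4%. RefSeq windows of 300 bases, which run from 250 bases before to 50 after a start, were given for Lgr4, Lgr6, Axin2, Nkd1, Nkd2 and Rnf43, the last with 2 windows. None of these 7 windows holds either motif, and of all 32851 windows given for the mouse, a share of 8.65% does. This says only that these letters are not in these windows.

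LC and BC are the populations for which the labels name no treatment, and every one of the 8 genes was lower in LC. The size of the difference varied widely between them. The mean of Lgr5 was 5.61 ± 2.95 CPM for LC and 507 ± 120.0 CPM for BC (SD over 2 libraries each), a log2 fold change of -6.53 (SE 0.487, adjusted p = 9.59e-06 in edgeR's quasi-likelihood test). Nkd1 was lower by a log2 fold change of -5.53 (SE 0.864, adjusted p = 0.00165), Axin2 by -3.64 (SE 0.357, adjusted p = 3.16e-05), Nkd2 by -3.62 (SE 0.618, adjusted p = 0.00229), Lgr4 by -2.49 (SE 0.249, adjusted p = 3.63e-05) and Lgr6 by -2.06 (SE 0.445, adjusted p = 0.00696). The ligases differed least, Rnf43 by -1.35 (SE 0.361, adjusted p = 0.019) and Znrf3 by -1.28 (SE 0.287, adjusted p = 0.00697). In all, 8 of 8 fell and 0 rose, where 24% of the 19757 tested genes were called, 12.5% lower and 11.5% higher. The libraries of all 8 were lower without overlap, as were those of 30.3% of the tested genes. The median log2 fold change of the 8 genes was -3.06, and that of all tested genes was -0.04.

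In bulk libraries fewer expressing cells and less RNA per cell cannot be told apart, and this holds for every difference given here. Without BC replicate 2 the differences of Lgr6 (log2 fold change -1.10, adjusted p = 0.0517), Rnf43 (adjusted p = 0.138) and Znrf3 (adjusted p = 0.0625) no longer passed. The same 3 genes did not pass without LC replicate 2 (adjusted p = 0.0561, 0.0772 and 0.0557 for Lgr6, Rnf43 and Znrf3), nor did Rnf43 without LC replicate 1 (adjusted p = 0.0969). The log2 fold changes of Nkd1 and Nkd2 were -7.70 and -5.65 without LC replicate 1, and -4.52 and -2.70 without LC replicate 2. In LC Nkd1 had 13 and 2 counts and Nkd2 had 37 and 7 counts in replicates 1 and 2, in which basal markers summed to 293 and 127 CPM and endothelial markers to 281 and 84.8 CPM; the part of these markers was not tested. Without BC replicate 1 and without BC replicate 2 the value of Nkd1 was -6.12 and -4.47, and Lgr5 was at -7.17 without LC replicate 1. The calls of Lgr4, Lgr5, Axin2, Nkd1 and Nkd2 held without any of these 4 libraries.

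TLC and LC were compared to see what the luminal fraction of marked cells carried after ablation. Lgr5 rose to 90.3 ± 39.8 CPM in TLC, against 5.61 ± 2.95 in LC (SD, n = 2 each), a 16.4-fold difference. Nkd2 rose to 48.2 ± 0.514 CPM in TLC, against 2.26 ± 2.48 in LC (SD, n = 2 each), a 22.9-fold difference. Lgr4 rose to 137 ± 33.5 CPM in TLC, against 70.02 ± 5.52 in LC (SD, n = 2 each), a 1.95-fold difference. The log2 fold changes were 4.03 for Lgr5 (SE 0.443, adjusted p = 0.000793), 4.52 for Nkd2 (SE 0.628, adjusted p = 0.00324) and 0.97 for Lgr4 (SE 0.239, adjusted p = 0.0297) in edgeR's quasi-likelihood test. Thus 3 of 8 rose and 0 fell, where 8.22% of all tested genes were called, 4.46% higher and 3.77% lower. The median log2 fold change of the 8 genes was 0.86, and that of all tested genes was 0.00.

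The other 5 genes did not pass in TLC against LC. Znrf3 had a log2 fold change of 0.98 (SE 0.286, adjusted p = 0.0573) and passed in 3 of 7 alternative settings (adjusted p from 0.00557 to 0.0679). Axin2 had 0.56 (SE 0.36, adjusted p = 0.415), Nkd1 0.76 (SE 1.04, adjusted p = 0.753), Rnf43 0.12 (SE 0.359, adjusted p = 0.898) and Lgr6 -0.39 (SE 0.432, adjusted p = 0.682). A p that misses the threshold does not show that these genes were alike in both populations. The summed basal markers moved with the rise, at 1684 and 1035 CPM in TLC against 293 and 127 CPM in LC, and 5 of 10 basal markers were called higher there; their part in the rise was not tested. Of 10 fibroblast markers 3 were called higher and 1 lower in TLC, with sums of 184 and 387 CPM in TLC and 421 and 327 CPM in LC. The rises of Lgr5 and Nkd2 passed without any of the 4 libraries, with Lgr5 at 4.67 and Nkd2 at 6.54 without LC replicate 1, and Nkd2 at 3.59 without LC replicate 2. Lgr4 did not pass without LC replicate 1 (adjusted p = 0.0931), TLC replicate 1 (adjusted p = 0.212) or LC replicate 2 (adjusted p = 0.153), nor when only TLC and LC were fitted (adjusted p = 0.057, against a range of 0.00277 to 0.057 over 7 settings).

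TBC and BC were compared for the same question in basal cells. None of the 8 genes passed edgeR's quasi-likelihood test, where 0% of all genes were called and 1725 of 19757 had an unadjusted p under 0.05. Among the 8 genes 2 had an unadjusted p under 0.05, Znrf3 and Nkd2. Znrf3 was at 90.7 ± 19.7 CPM in TBC and 52.5 ± 10.5 in BC (SD, n = 2 each), with a log2 fold change of 0.79 (SE 0.28, adjusted p = 0.477). Nkd2 was at 71.7 ± 13.7 CPM in TBC and 25.8 ± 2.18 in BC (SD, n = 2 each), with a log2 fold change of 1.47 (SE 0.52, adjusted p = 0.493). Nkd1 had a log2 fold change of 1.21 (SE 0.635, adjusted p = 0.621), which was 0.63 without BC replicate 1 and 2.28 without BC replicate 2, and Lgr5 one of -0.66 (SE 0.375, adjusted p = 0.639). Lgr4, Axin2, Rnf43 and Lgr6 had log2 fold changes of -0.03, 0.28, 0.10 and 0.50, and Lgr6 was at 1.47 without BC replicate 2. DESeq2 and limma-voom also called 0 of the 8, while the fit without the low-count filter called Nkd2 (log2 fold change 1.51, adjusted p = 0.000123, against a range of 0.000123 to 0.489 over 7 settings). That fit called 398 of 34928 genes here, and its adjusted p for Lgr5 in LC vs BC was 1.01e-86, against 9.59e-06 with the filter. In simulated counts for TBC vs BC over 19757 genes the test found 72 of 100 genes with a 4-fold change but only 15 of 100 with a 2-fold change. The changed genes were drawn at random above a low mean level. The 8 genes lie at percentiles 44.5 to 96.6 of mean log2 CPM, so these shares are not specific to them. Adjusted p also depends on the other genes of a comparison. The simulated one had changed genes put in, while the smallest adjusted p of the real TBC vs BC was 0.181. These shares therefore do not tell how often a true change in the 8 genes would be called there.

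**Figure D3:**
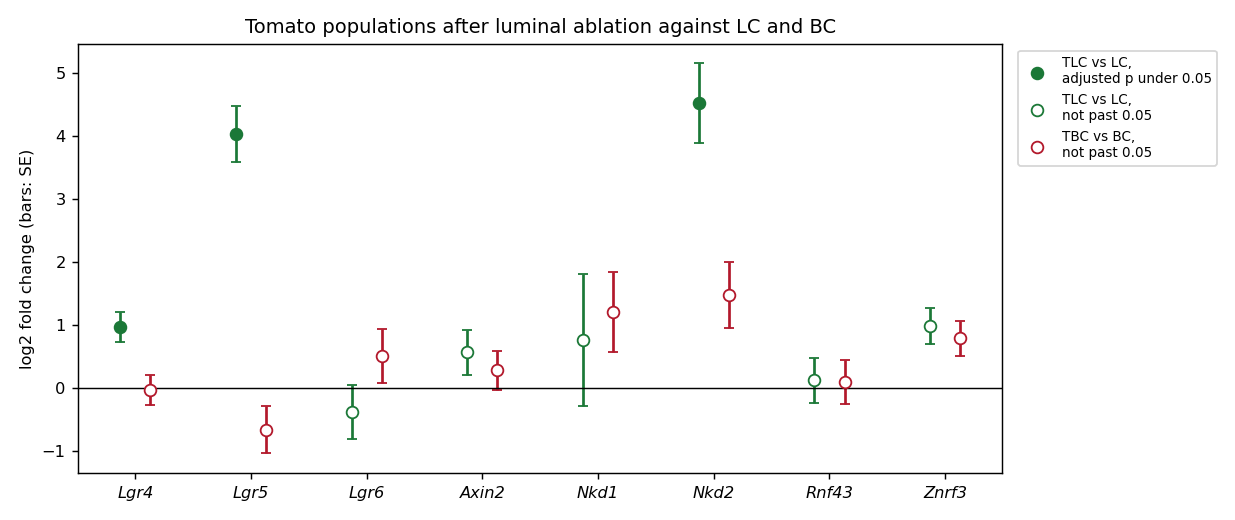
Log2 fold changes of the 8 genes in TLC vs LC (green) and TBC vs BC (red), with bars of 1 SE and filled points where adjusted p was under 0.05. Lgr5 and Nkd2 reach 4.03 and 4.52 in TLC vs LC, against -0.66 and 1.47 in TBC vs BC.

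The log2 fold change of TLC vs LC minus that of TBC vs BC was tested directly, and is called the difference between lineages. Lineage here means the luminal or basal label of the sorted cells, not their descent. Ablation and Tomato marking cannot be told apart in it. The labels do not say whether TLC descend from cells like LC. Lgr5 passed, with a difference of 4.70 log2 units (SE 0.574, adjusted p = 0.00693 in edgeR's quasi-likelihood test). It was 1 of 8 genes, where 0.911% of all tested genes were called, 0.552% with a positive difference and 0.359% with a negative one. Of the 10 basal markers 4 passed in the same direction (Krt14, Krt17, Krt5 and Trp63); their part in the difference of Lgr5 was not tested. Its call held in 7 of 7 alternative settings and without any of 8 libraries, and it was at 5.33 without LC replicate 1. For Nkd2 the difference was 3.05 (SE 0.79, adjusted p = 0.148), which passed in 3 of 7 settings (adjusted p from 1.06e-08 to 0.196), and without LC replicate 1 (5.06, adjusted p = 0.00108) and LC replicate 2 (2.12, adjusted p = 0.0405). For Lgr4 it was 0.998 (SE 0.335, adjusted p = 0.26), and for Lgr6 -0.89 (SE 0.608, adjusted p = 0.711). The value of Lgr6 was -0.32 without BC replicate 1 and -1.85 without BC replicate 2. Axin2, Nkd1, Rnf43 and Znrf3 had differences of 0.28, -0.45, 0.03 and 0.20.

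TLC and TBC compare cells labelled luminal and basal among marked cells after ablation. Of the 8 genes 7 fell in TLC and 0 rose, where 13.6% of all tested genes were called, 8.02% lower and 5.59% higher. The libraries of all 8 were lower without overlap, as were those of 28.2% of the tested genes. Nkd1 was lowest relative to TBC, at 1.12 ± 0.345 CPM in TLC against 74.9 ± 17.9 in TBC (SD, n = 2 each), a log2 fold change of -5.98 (SE 0.852, adjusted p = 0.00196). Axin2 followed with -3.36 (SE 0.352, adjusted p = 0.000128), Lgr6 with -2.94 (SE 0.461, adjusted p = 0.00207), Lgr5 with -1.83 (SE 0.388, adjusted p = 0.00955) and Lgr4 with -1.49 (SE 0.241, adjusted p = 0.00176). Rnf43 fell by 1.33 log2 units (adjusted p = 0.0326) and Znrf3 by 1.08 (adjusted p = 0.0254). Nkd2 did not pass, with 48.2 ± 0.514 CPM in TLC and 71.7 ± 13.7 in TBC (SD, n = 2 each) and a log2 fold change of -0.58 (SE 0.507, adjusted p = 0.542).

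Lgr5 did not pass in TLC against TBC without TBC replicate 1 (adjusted p = 0.0622) or TLC replicate 2 (adjusted p = 0.0788). Rnf43 did not pass without TLC replicate 1 (adjusted p = 0.187) or TBC replicate 2 (adjusted p = 0.208), nor Znrf3 without TLC replicate 1 (adjusted p = 0.139), TBC replicate 2 (adjusted p = 0.194) or TLC replicate 2 (adjusted p = 0.0703).

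As a share of the mean in TBC, the mean CPM in TLC was 67.2% for Nkd2, 47.4% for Znrf3, 39.7% for Rnf43, 35.6% for Lgr4, 28.2% for Lgr5, 13.0% for Lgr6, 9.65% for Axin2 and 1.5% for Nkd1. Basal markers measured the same way spread widely too, with a median of 6.76% and a range from 0.954% for Cnn1, a contractile protein, to 36.9% for Vim, an intermediate filament protein. Keratins stood high among them, with Krt14 at 34.6%, Krt17 at 22.8% and Krt5 at 12%, and contractile genes low, with Acta2 at 1.78% and Myh11 at 1.30%. Between LC and BC the mean in LC, as a share of that in BC, was 41.5% for Znrf3, 39.3% for Rnf43, 24.0% for Lgr6, 17.8% for Lgr4, 8.73% for Nkd2, 8.16% for Axin2, 2.43% for Nkd1 and 1.11% for Lgr5. Basal markers there had a median of 1.24%. These shares are given as a description and were not tested.

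**Figure D4:**
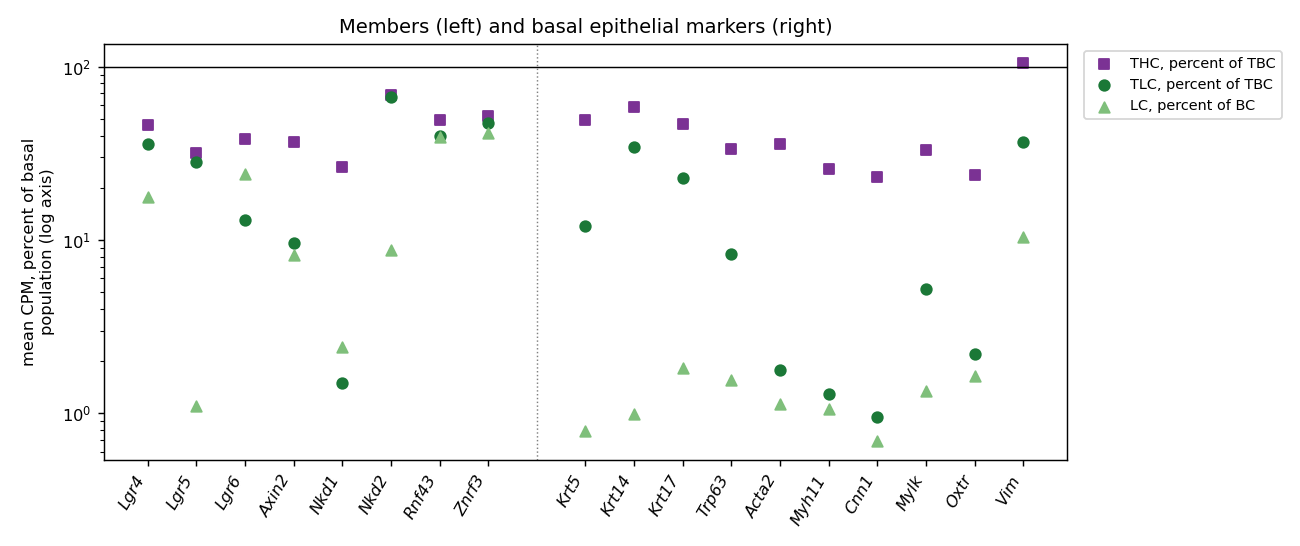
Mean CPM (n = 2 libraries) in THC and TLC as a percent of TBC, and in LC as a percent of BC, on a log axis, for the 8 genes on the left and 10 basal markers on the right. Lgr5 stands at 28.2% in TLC and 1.11% in LC, while Nkd1 stands at 1.5% and 2.43%.

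THC were compared with TBC to see how hybrid cells depart from marked basal cells. Each of the 8 genes was lower in THC in both libraries, without overlap, where 25.5% of all tested genes had libraries lower without overlap. By edgeR's quasi-likelihood test 3 of 8 fell and 0 rose, where 3.72% of all tested genes were called, 1.14% lower and 2.57% higher. Lgr4 fell to 177 ± 16.1 CPM in THC, against 385 ± 13.5 in TBC (SD, n = 2 each), a log2 fold change of -1.12 (SE 0.239, adjusted p = 0.0265). Lgr5 fell to 102 ± 0.11 CPM in THC, against 320.5 ± 87.1 in TBC (SD, n = 2 each), a log2 fold change of -1.65 (SE 0.387, adjusted p = 0.0439). Axin2 fell to 18.6 ± 2.73 CPM in THC, against 50.5 ± 6.06 in TBC (SD, n = 2 each), a log2 fold change of -1.43 (SE 0.321, adjusted p = 0.0323). Nkd1 (-1.87, adjusted p = 0.183), Lgr6 (-1.39, adjusted p = 0.123), Rnf43 (-0.997, adjusted p = 0.178), Znrf3 (-0.92, adjusted p = 0.108) and Nkd2 (-0.55, adjusted p = 0.648) did not pass. Of these, Lgr6 passed in 4 of 7 alternative settings (adjusted p from 4.38e-06 to 0.11), Znrf3 in 3 (0.00923 to 0.126), Rnf43 in 2 (0.00393 to 0.191) and Nkd1 in 1 (0.0359 to 0.251). None of these 4 passed with a library left out, and without THC replicate 2 Nkd1 was at -2.64 and Rnf43 at -1.67.

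No call in THC against TBC held when any of the 4 libraries was left out. Without TBC replicate 1, THC replicate 1, TBC replicate 2 and THC replicate 2 the adjusted p was 0.131, 0.189, 0.0767 and 0.0936 for Lgr4, 0.225, 0.221, 0.0659 and 0.179 for Lgr5, and 0.0989, 0.198, 0.159 and 0.117 for Axin2. The log2 fold changes stayed between -1.27 and -1.04 for Lgr4, -1.97 and -1.37 for Lgr5, and -1.65 and -1.31 for Axin2. Summed endothelial markers were 679 and 671 CPM in THC against 216 and 234 CPM in TBC, fibroblast markers 995 and 2070 CPM against 407 and 707 CPM, and immune markers 343 and 133 CPM against 99.5 and 72.6 CPM; their part in these values was not tested.

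THC and TLC were compared for the opposite boundary. Axin2 rose to 18.6 ± 2.73 CPM in THC, against 4.88 ± 0.695 in TLC (SD, n = 2 each), a log2 fold change of 1.93 (SE 0.347, adjusted p = 0.0213 in edgeR's quasi-likelihood test). It was 1 of 8 genes, and 0 fell, where 1.61% of all tested genes were called, 1.52% higher and 0.0911% lower. Nkd1 was at 19.7 ± 10.4 CPM in THC and 1.12 ± 0.345 in TLC (SD, n = 2 each), with a log2 fold change of 4.12 (SE 0.832, adjusted p = 0.0505), and passed in 4 of 7 settings (adjusted p from 0.00173 to 0.0776). With any of the 4 libraries left out Nkd1 did not pass (adjusted p from 0.0832 to 0.36), and it was at 3.34 without THC replicate 2. Lgr6 was at 249.6 ± 85.6 CPM in THC and 85.4 ± 7.84 in TLC (SD, n = 2 each), with a log2 fold change of 1.55 (SE 0.441, adjusted p = 0.134), and passed in 3 of 7 settings (adjusted p from 1.2e-06 to 0.143). Lgr4, Lgr5, Nkd2, Rnf43 and Znrf3 had log2 fold changes of 0.38, 0.18, 0.02, 0.33 and 0.16 and did not pass. Axin2 did not pass without TLC replicate 1 (adjusted p = 0.147), THC replicate 2 (adjusted p = 0.185) or TLC replicate 2 (adjusted p = 0.174). Endothelial markers were 679 and 671 CPM in THC against 118 and 129 CPM in TLC, and basal markers 6463 and 5115 CPM against 1684 and 1035 CPM. Fibroblast markers were 995 and 2070 CPM in THC against 184 and 387 CPM in TLC, and immune markers 343 and 133 CPM against 61.2 and 53.4 CPM. Of the 7 tested pericyte markers 3 were called higher in THC and 0 lower. Of 10 luminal markers 2 were called lower. The part of these markers in the values of Axin2, Nkd1 and Lgr6 was not tested.

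**Figure D5:**
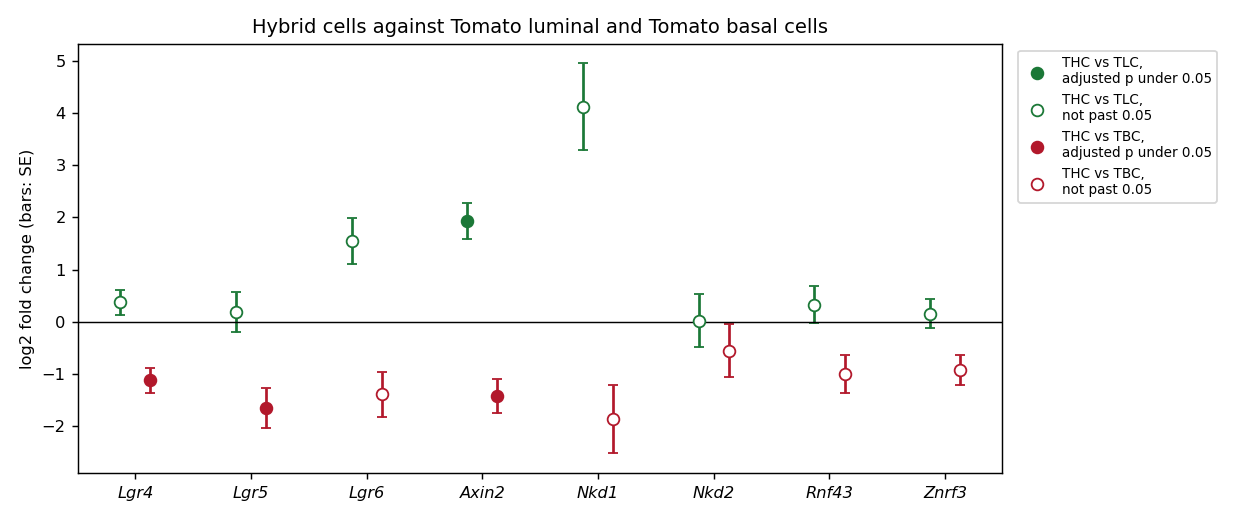
Log2 fold changes of the 8 genes in THC vs TLC (green) and THC vs TBC (red), which share the THC libraries, with bars of 1 SE and filled points where adjusted p was under 0.05. Axin2 passed in both, at 1.93 against TLC and -1.43 against TBC.

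In THC against BC a pair of receptors passed. Lgr5 fell by 2.31 log2 units (SE 0.395, adjusted p = 0.00829) and Lgr4 by 1.15 (SE 0.239, adjusted p = 0.0167), 2 of 8 genes, and 0 rose, where 7.71% of all tested genes were called, 2.72% lower and 5% higher. Axin2 had -1.15 (SE 0.321, adjusted p = 0.0519) and passed in 6 of 7 alternative settings (adjusted p from 0.00568 to 0.0655). Nkd2 was at 49.2 ± 6.53 CPM in THC and 25.8 ± 2.18 in BC (SD, n = 2 each), with a log2 fold change of 0.92 (SE 0.522, adjusted p = 0.319). Lgr6, Nkd1, Rnf43 and Znrf3 had -0.89, -0.66, -0.90 and -0.14 and did not pass, with Rnf43 at -1.57 and Nkd1 at -1.43 without THC replicate 2. Basal markers summed to 6463 and 5115 CPM in THC, against 11030 and 15500 CPM in BC, with 4 of 10 called lower. Fibroblast markers summed to 995 and 2070 CPM in THC, against 339 and 318 CPM in BC, with 4 of 10 called higher, and 8 of 10 luminal and 2 of 10 immune markers were called higher. The part of these markers in the values of the 8 genes was not tested. The difference of Lgr6 was 0.06 without BC replicate 2, and that of Nkd1 was 0.40. The calls of Lgr5 and Lgr4 held without BC replicate 1, but not without THC replicate 1, BC replicate 2 or THC replicate 2. With 1 library left out the log2 fold change stayed between -2.56 and -2.04 for Lgr5 and between -1.36 and -0.92 for Lgr4. Without THC replicate 1, BC replicate 2 and THC replicate 2 the adjusted p was 0.0613, 0.0617 and 0.0589 for Lgr5 and 0.124, 0.123 and 0.0589 for Lgr4, and without BC replicate 1 Lgr6 and Axin2 also passed (adjusted p = 0.0362 for each). The comparisons of THC share the THC libraries, and those with BC share the BC libraries.

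The rest of the Wnt pathway was read from lists of genes. Of the R-spondins, the ligands of Lgr receptors, only Rspo1 of 4 had enough counts to be tested. Rspo1 was at 0.775 and 11.6 CPM in THC, 0.351 and 2.73 in TLC, 1.42 and 2.35 in TBC, 17.9 and 9.19 in LC, and 4.12 and 2.98 in BC, and was called in none of the 8 comparisons by edgeR, with an unadjusted p under 0.05 in 1 of them, TLC vs LC. Rspo2, Rspo3 and Rspo4 had at most 2 counts in any library.

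Of 15 Wnt receptors 6 fell and 2 rose in LC against BC, where 12.5% of all tested genes were lower and 11.5% higher. Fzd7, a Frizzled receptor of basal mammary cells, was at 60.3 and 67.1 CPM in LC, against 588 and 1129 CPM in BC, a log2 fold change of -3.75 (adjusted p = 2.06e-05), and Ror1 and Fzd3 fell by 2.65 and 1.74 log2 units. In TLC against LC 3 rose and 1 fell, where 4.46% of all tested genes were higher and 3.77% lower. Ror1 (1.66, adjusted p = 0.0115), Fzd9 (2.45, adjusted p = 0.037) and Fzd7 (1.12, adjusted p = 0.0497) were higher, the first a receptor of Wnt5a, and Fzd4 (-1.24, adjusted p = 0.0162) was lower. In TLC against TBC 7 fell and 0 rose, where 8.02% of all tested genes were lower, led by Fzd7 (-2.41), Fzd3 (-1.46) and Fzd1 (-1.88). In THC against TBC 3 fell, Fzd3, Fzd7 and Fzd1, and Fzd4 rose (1.20, adjusted p = 0.0322), where 1.14% of all tested genes were lower and 2.57% higher. The medians of the receptor list were -0.63, 0.06, -1.07 and -0.60 log2 units in these 4 comparisons. In THC against BC 3 fell and 2 rose, where 2.72% of all tested genes were lower and 5% higher. By edgeR 0 of 15 passed in TBC against BC, in THC against TLC and in the difference between lineages, where 1, 2 and 6 had an unadjusted p under 0.05.

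Of 11 genes of the beta-catenin machinery 2 passed in LC against BC and 1 in TLC against TBC, where 24% and 13.6% of all tested genes were called. In LC against BC Apc, the large scaffold of the degradation complex, rose (1.29, adjusted p = 0.00366) and its paralog Apc2 fell (-1.39, adjusted p = 0.0168), and Apc2 fell in TLC against TBC (-2.01, adjusted p = 0.00518). By edgeR the other 6 comparisons had 0 called, with between 0 and 3 of the 11 at an unadjusted p under 0.05. Among 7 measured nuclear factors, Tcf7, a beta-catenin partner, was at 41.6 and 22.1 CPM in TLC, against 8.997 and 9.05 CPM in LC, a log2 fold change of 1.81 (adjusted p = 0.0088), and Pygo1, a coactivator, rose too (1.13, adjusted p = 0.0375). In TLC against LC 8.22% of all tested genes were called, and in LC against BC 24%. In LC against BC 3 of 7 fell, Pygo1 (-2.75), Tcf7l1 (-1.95) and Tcf7 (-1.79), and 0 rose. Pygo1 also fell in THC against BC, THC against TBC and TLC against TBC (-1.11, -1.32 and -1.82), as did Tcf7l1 in TLC against TBC (-1.19). The remaining comparisons had 0 of 7 called by edgeR, with at most 1 at an unadjusted p under 0.05. Lef1 did not pass the count filter.

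In LC against BC Ccnd1, which encodes cyclin D1 of the cell cycle, rose (3.16) and Apcdd1, a Wnt inhibitor at the membrane, and Myc, a growth regulator, fell (-3.40 and -1.76) among the other Wnt target genes, with 1 of 10 higher and 3 lower where 24% of all tested genes were called. In TLC against LC, where 8.22% of all tested genes were called, 2 of 10 rose and 0 fell, Ccnd1 at 548 and 516 CPM in TLC against 210 and 203 CPM in LC (1.37, adjusted p = 0.00802), and Apcdd1 at 6.14 and 4.37 CPM in TLC against 1.41 and 0.933 CPM in LC (2.16, adjusted p = 0.0198). Ccnd1 also rose in THC against BC, THC against TBC and TLC against TBC (3.52, 1.90 and 2.91), and Myc fell in THC against BC and TLC against TBC (-1.41 and -1.55). By edgeR the other 3 comparisons had 0 of 10 called and 2 of 10 each at an unadjusted p under 0.05. Of this list of 12, 2 were not tested. The median log2 fold change of the 10 genes was -0.73 in LC against BC and 0.35 in TLC against LC.

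Among themselves the 8 genes were not equally alike over the 10 libraries. Axin2 and Nkd1 had the highest Pearson correlation of log2 CPM, 0.983, and Nkd2 the lowest ones, 0.38 with Rnf43 and 0.442 with Lgr6. Lgr5 had 0.953 with Lgr4, 0.824 with Nkd2 and 0.685 with Lgr6. The genes most like each of them were sought among 11498 genes with a mean of at least 5 CPM. Those of Axin2 were Nfatc4, Abat and Ptpre (0.993 to 0.995), those of Nkd1 Col4a2, Col4a1 and Aoc3 (0.988 to 0.995), and those of Lgr5 Enc1, Tshz2 and Nectin3 (0.991 to 0.992). Those of Lgr4 were Pkia, Lrp1 and Tulp3 (0.993 to 0.995), those of Lgr6 Kank4, Zfp385a and Zfp275 (0.979 to 0.995), and those of Nkd2 Tada2a, Adgrg2 and Fyn (0.976 to 0.982). Rnf43 was most like Zfp790, Kif3c and Agap3 (0.975 to 0.984), and Znrf3 most like Zfp770, Lmf2 and Nfic (0.961 to 0.963). The 10 libraries are 5 populations of 2, so any gene that separates basal from luminal cells scores high on this measure.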

How the data were processed

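The authors deposited raw counts of reads per Ensembl gene, 1 table for each library. STAR, HTSeq and the build GRCm38 (mm10) are credited to the submitters' processing notes; tool versions, annotation and strand setting: not given in the sources used here. RNA of sorted cells was extracted with the RNeasy Micro kit and sequenced from Ovation Solo libraries, per the labels' protocols. The summary entries of HTSeq were left out of all totals: between 12.6% and 30.8% of reads had no feature, between 2.71% and 3.48% were ambiguous and between 14.6% and 22.4% did not align uniquely, except for 43.0% in THC replicate 1. Of 49671 identifiers 49412 were matched in GENCODE M21.

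Counts were filtered with filterByExpr, scaled by TMM and tested with edgeR's quasi-likelihood F-test (edgeR 4.0.16, R 4.3.3) in a fit of all 10 libraries with 1 coefficient per population and 5 residual degrees of freedom. Benjamini-Hochberg adjustment ran over 19757 genes, with a threshold of 0.05. Alternatives were RLE scaling, DESeq2 1.42.0, limma-voom (limma 3.58.1), no filter, a filter at 5 CPM in at least 2 libraries, a term for the number set in the titles, a fit restricted to the populations at hand, and each library left out. Each SE is the absolute log2 fold change divided by the square root of the F statistic, and is not an SE estimated by the fit itself. Log2 CPM used a prior count of 2. The test was tried on simulated counts with 200 changed genes per comparison. Genes named as alike are the 3 with the highest correlation, leaving out gene models named Gm or Rik. From each Wnt list at most 3 called genes per comparison were named, by smallest adjusted p; Fzd7 in TLC against LC, Fzd1 in THC against TBC, Tnfrsf19 and Procr were added after their values were seen. The 8 genes and the lists were chosen with earlier results of these data known. Counting limits cover counting error only.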

Additional observations from a re-analysis of the deposited data

Results flagged for a closer look

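Lgr5 differed between the contrasts TLC vs LC and TBC vs BC. Its log2 fold change of TLC vs LC, 4.03, exceeded that of TBC vs BC, -0.66, by 4.70 (SE 0.574, adjusted p = 0.00693 in edgeR's quasi-likelihood test of the difference). Both TLC libraries (118 and 62.2 CPM) were above both LC libraries (7.70 and 3.52 CPM), and both TBC libraries (382 and 259 CPM) were below both BC libraries (423 and 592 CPM). Populations of 2 libraries are too small to look for single outlying libraries.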

How the results depend on the processing

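The settings did not give p of like size at like fold changes. For Lgr5 in LC vs BC the adjusted p was 1.01e-86 without the filter and 7.25e-57 with DESeq2, against 9.59e-06 in edgeR's main fit. The log2 fold changes there were -6.54, -6.52 and -6.53. The low end of a range of p over the 7 settings therefore depends on the fit. Of the 8 genes, the number called stayed within 1.5 times of the reported count under all 7 settings of tool, scaling, filter and design in LC vs BC, TLC vs LC and TLC vs TBC. In TBC vs BC it was 1 without the low-count filter, against 0, where 398 of 34928 tested genes were called, against 0 of 19757. In THC vs BC it was 6 without the filter and 4 with the set of library numbers as a block, against 2. Over all tested genes 2707 of 34928 and 2800 of 19757 were called there, against 1524 of 19757. In THC vs TBC it was 5 with DESeq2, 6 without the filter, 6 with that block and 5 with only the populations compared, against 3. Over all tested genes 1374 of 16644 were called with DESeq2 and 1839 of 34928 without the filter, against 734 of 19757. In THC vs TLC it was 3 with DESeq2, 3 without the filter, 2 with the stricter filter and 3 with only the populations compared, against 1. In the difference between lineages it was 2 with DESeq2, 2 with limma-voom and 2 without the filter, against 1. The number called over all genes was larger too in each fit for which it is given here. For the other fits named above it is not given, so their counts of the 8 genes cannot be set against a share over all genes. Whether the 8 genes gained more calls than other genes was not tested, nor was the cause. Fits with 1 library left out have fewer degrees of freedom and take the lone library to vary like the other populations. How their calls changed over all tested genes is not given here. Over single genes and comparisons, 407 of 448 values kept direction and call under the 7 settings, 34 became called, 1 lost its call and 6 changed sign; leaving out a library, 219 of 288 kept both, 38 lost the call, 4 became called and 27 changed sign. None of these 33 sign changes was of a gene called in either fit, with edgeR or the alternative. Under the settings, Nkd2 in THC vs TLC was -0.02 with RLE scaling, -0.023 with DESeq2, -0.015 with limma-voom and -0.001 without the filter, in log2 units. In the difference between lineages Nkd1 was 0.158 with limma-voom and Rnf43 -0.044 with the replicate block. The log2 fold changes that changed sign when 1 library was left out had these ranges. In TBC vs BC it ran from -0.067 to 1.466 for Lgr6, -0.029 to 0.702 for Axin2, -0.149 to 0.399 for Rnf43 and -0.228 to 0.211 for Lgr4. In TLC vs LC it ran from -0.246 to 2.914 for Nkd1 and -0.392 to 0.464 for Rnf43. In THC vs BC it ran from -0.632 to 0.168 for Znrf3, -1.477 to 0.057 for Lgr6 and -1.433 to 0.396 for Nkd1. In THC vs TLC it ran from -0.11 to 0.115 for Nkd2, -0.346 to 0.808 for Rnf43, -0.335 to 0.461 for Znrf3 and -0.223 to 0.714 for Lgr5. In the difference between lineages it ran from -1.525 to 1.703 for Nkd1, -0.484 to 0.36 for Rnf43, -0.049 to 0.45 for Znrf3 and -0.141 to 0.721 for Axin2. The labels give no replicate numbers. Deviations of libraries of the same number set correlated at -0.0124 to 0.421 over 19757 genes, above 0.1 in 8 of 10 pairs of populations. Nothing in the labels ties a number set to shared animals, and not every pair exceeded 0.1, the cut-off used here, so the main fit has no block. Each set holds a library of every population, so a block can be fitted, and the cut-off does not show that the sets are independent. With the block 5828 of 19757 genes were called in LC vs BC, against 4742. A shared effect of the sets is not excluded. With the replicate block Lgr6 (adjusted p = 0.0381), Rnf43 (adjusted p = 0.0142) and Znrf3 (adjusted p = 0.0335) also passed in THC vs TBC, Axin2 (adjusted p = 0.0259) and Rnf43 (adjusted p = 0.0163) in THC vs BC, and Znrf3 in TLC vs LC (adjusted p = 0.0218), and no call was lost. Counts were few for Nkd1 and Nkd2 in LC, and for Nkd1 and Axin2 in THC replicate 1, at 32 and 43. They were also few for Axin2 in TLC (25 and 59) and LC (40 and 34), and for Nkd1 in TLC (5 and 15).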

Other observations

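A pair of Wnt-related genes differed widely between the libraries of single populations; they were chosen after their values were seen. Tnfrsf19, a receptor of the tumour necrosis factor family known as a Wnt target, was at 1.16 and 9.65 CPM in THC, 1.93 and 3.91 in TLC, 1.42 and 18.4 in TBC, 2.49 and 3.52 in LC, and 1.18 and 0.680 in BC, for replicates 1 and 2. Procr, a receptor that marks a subset of mammary basal cells and also endothelium, was at 18.6 and 15.9 CPM in THC, 4.21 and 3.46 in TLC, 7.26 and 5.72 in TBC, 6.50 and 1.51 in LC, and 21.4 and 5.95 in BC. Its higher library in LC and in BC was the one with more endothelial markers, at 281 against 84.8 CPM in LC and 473 against 138 CPM in BC; the part of these markers was not tested.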
